A study of Caenorhabditis elegans with 4 samples.

Results

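The sites described here are the regions of chromosome IV, outside its piRNA domains, that were called as bound by C34F6.9 in larvae of the nematode Caenorhabditis elegans. They were taken from the combined peak list by position alone. A peak was a member when it lay on chromosome IV and its midpoint fell neither between 4.5 and 7 Mb nor between 13.5 and 17.2 Mb, the stretches taken as the piRNA domains. This gave 748 peaks, or 11.5% of the list, whose other 5746 peaks lay in the domains or on other chromosomes. The members lay on 11.3 Mb, which is 11.3% of the length of the nuclear chromosomes. Of these, 498 lay in the centre between the domains, 232 on the left arm before the first domain and 18 on the right end after the second domain.

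In chromatin immunoprecipitation and sequencing (ChIP-seq), protein is fixed to DNA, collected with an antibody, and the DNA that comes with it is sequenced. Places where such DNA piles up are called as peaks. Here the antibody recognised green fluorescent protein (GFP), and the animals were hermaphrodites of strain OP324 grown at 20 degrees Celsius to the second larval stage, L2. Their genotype is given as unc119(ed3) with the transgene wgIs324, which encodes C34F6.9 joined to TY1, EGFP and FLAG tags together with unc119. ChIP and input samples carry the same genotype. The 2 ChIP samples and the 2 input samples, total DNA of the same kind of animals, make up the series, whose title calls C34F6.9 a transcription factor and whose purpose was to find where it binds. The protein mapped is therefore a tagged one made from a transgene in whole animals of 1 strain, and the labels name no change of the endogenous gene and no site of insertion. Peak lists were used for ChIP replicate 1 (29725 peaks), ChIP replicate 2 (23374 peaks) and both combined. The input samples are not analysed here, so no background from them stands beside the peaks. Sequencing depth is unknown, and nothing says whether the replicates came from separate cultures.

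Most piRNAs of C. elegans come from small separate genes that are gathered in broad stretches of chromosome IV. These genes carry their own short upstream motif, and their products, bound by the Argonaute protein PRG-1, silence foreign sequences in the germ line. The rest of the chromosome follows the plan of the other autosomes, in which a gene-rich central part lies between arms that hold more repeats and recombine more often. Worm chromosomes have no single centromere, so arms and centre are usually defined by these properties. The borders used here are instead round positions, those of the piRNA domains. Left arm, centre and right end therefore name places relative to the domains, not parts defined by genes, repeats or recombination. Positions are in WormBase build WS220, and sites are given by position without sequence or gene, since no genome or annotation of that build was used here.

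The site nearest to each border shows how the division fell. At the start of the first domain, at 4.5 Mb, the last member was peak number 831, with its midpoint 22.7 kb before the border, and the first peak inside was number 6173, 6.83 kb after it. At the end of that domain, at 7 Mb, the first member was number 4352, 12.9 kb after the border, and the last peak inside was number 2516, 41.1 kb before it. At the start of the second domain, at 13.5 Mb, the last member was number 5027, 46.3 kb before the border, and the first peak inside was number 3937, 3.075 kb after it. At 17.2 Mb the first member was number 6276, 9.45 kb after the border, and the last peak inside was number 4457, 78.8 kb before it. The peak number is the authors' own number in a list, and 1 is the highest-ranked peak. No peak stood on a border, and every one of these 8 peaks overlapped a peak in both replicates.

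Sites were denser in the centre than on the left arm. Per Mb there were 76.6 sites in the centre (95% interval 70.03 to 83.7, exact Poisson) and 51.6 on the left arm (45.1 to 58.6). The ratio was 1.49 (95% interval 1.27 to 1.74, exact binomial test against the share of length, two-sided, p = 4.2e-07, and 1.7e-06 after Benjamini-Hochberg adjustment over 8 tests). The short right end, 0.29 Mb long, had 62.02 peaks per Mb with a wide interval of 36.8 to 98.01. As shares of the members, the centre held 66.6% on 57.6% of the length, the left arm 31.02% on 39.9%, and the right end 2.41% on 2.57%. The intervals and p-values cover counting error of peaks only, since neighbouring peaks are not independent and no comparison between samples was possible.

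**Figure D1:**
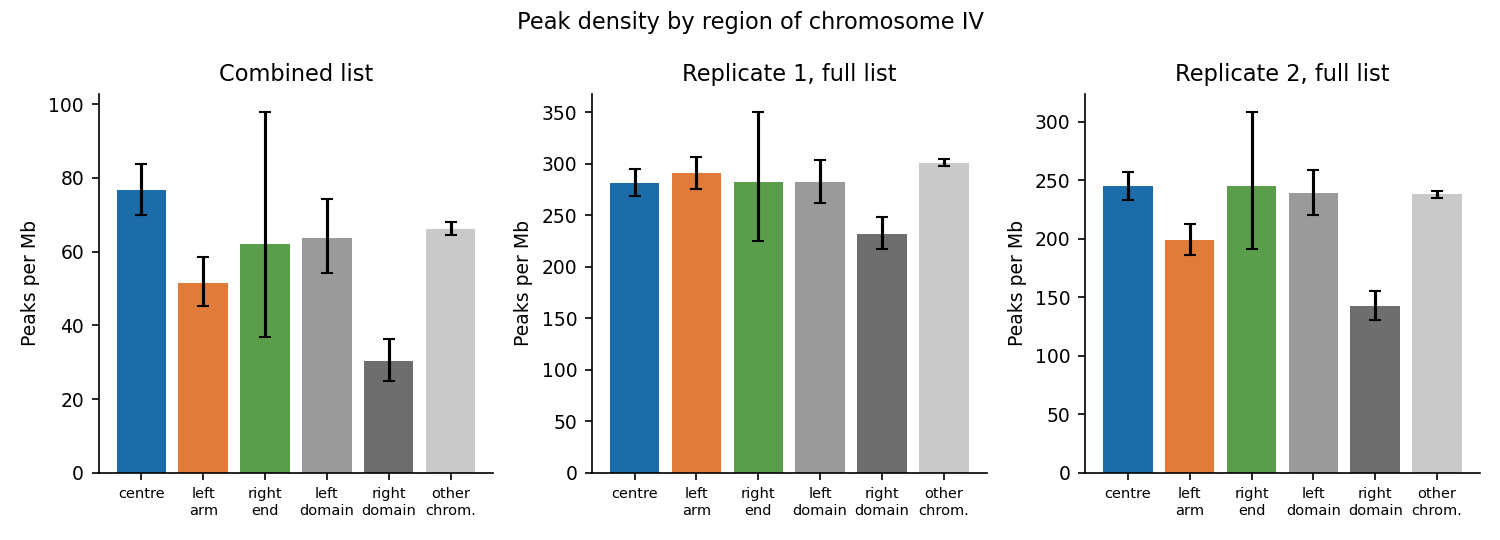
Peaks per Mb in the 3 regions outside the piRNA domains (blue, orange, green), in both domains of chromosome IV and on the other nuclear chromosomes (greys), for the combined list and both full replicate lists; error bars are exact Poisson 95% intervals. In the combined list the centre stands at 76.6 and the left arm at 51.6 peaks per Mb, whereas in the full list of replicate 1 they stand at 282 and 291.

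The difference between centre and left arm was larger in the upper part of each replicate list than over the whole of it. Upper peaks of a replicate are here its highest-scoring nuclear peaks, as many as the combined list holds. In replicate 1 the upper peaks gave 75.1 peaks per Mb in the centre and 52.0 on the left arm, a ratio of 1.44 (1.23 to 1.69). In replicate 2 they gave 76.6 and 49.8, a ratio of 1.54 (1.31 to 1.81). The full lists reach to lower scores. There replicate 1 had 282 peaks per Mb in the centre and 291 on the left arm (ratio 0.97, exact binomial p = 0.39), and replicate 2 had 245 and 199 (ratio 1.23, exact binomial p = 6.4e-07). The comparisons of full lists were added after the lists had been seen.

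Taken in successive slices as long as the combined list, a division also chosen after the lists had been seen, the ratio of centre to left arm was lower in each slice than in the one before it. In replicate 1 it was 1.44, 1.19, 0.86 and 0.75 in the first 4 slices and 0.68 (0.56 to 0.83) in the remaining peaks, ranks 25977 to 29701. In replicate 2 it was 1.54, 1.31 and 1.07, and 0.96 (0.79 to 1.18) in the remaining peaks, ranks 19483 to 23356. The lowest-ranked peaks of replicate 1 were thus denser on the left arm, with 32.6 peaks per Mb in the centre and 48.0 on the left arm. For the last slice of replicate 2 the interval includes equal density. The slices do not resolve the top of a list. Numbers 1 to 500 of the combined list gave 4.615 peaks per Mb in the centre and 4.444 on the left arm. Rank in the slices and among upper peaks is the order of the authors' score, with ties in the order of peak number. This order is not that of the peak numbers used elsewhere. In replicate 1, for example, number 3195 scored 3.328 and number 4967 scored 3.52.

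**Figure D2:**
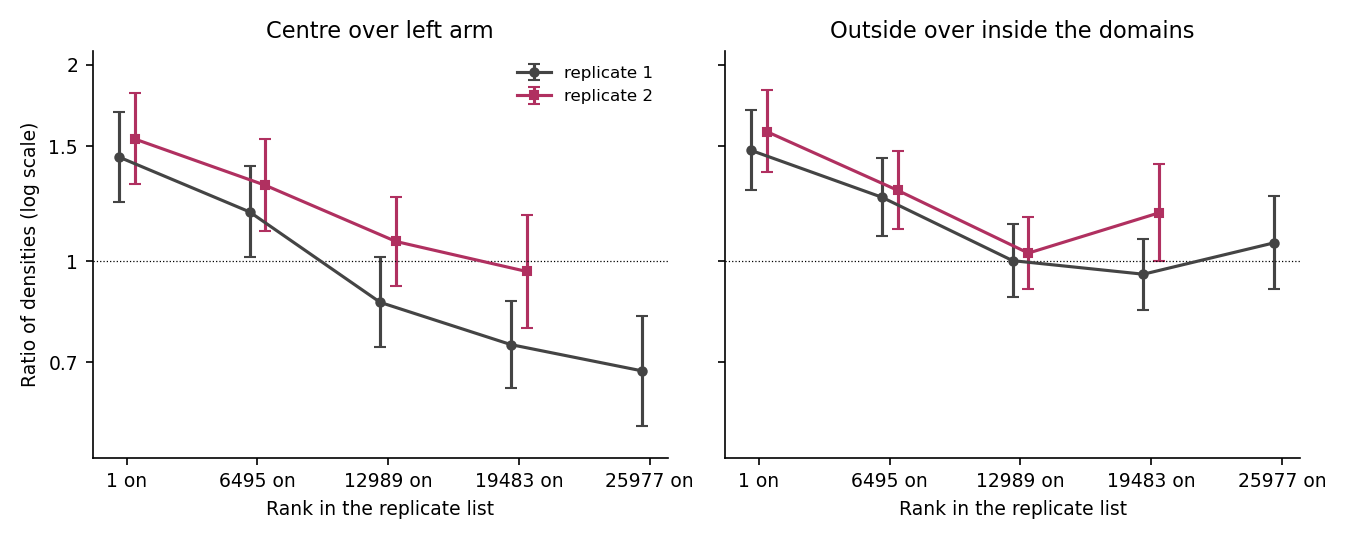
Ratio of peak densities on a log axis, centre over left arm (left panel) and outside over inside the piRNA domains (right panel). Nuclear peaks of each replicate were taken by rank in successive slices as long as the combined list. The remaining peaks form the last, shorter slice. Error bars are exact 95% intervals and the dotted line marks equal density. The centre ratio of replicate 1 lies at 1.44 in the first slice and at 0.68 in the last, and that of replicate 2 at 1.54 and 0.96.

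Within each region the density varied from place to place. In bins of 0.5 Mb the 13 bins of the centre held between 32 and 51 combined peaks, with the most between 11.5 and 12 Mb. The 9 bins of the left arm held between 15 and 32, with the fewest between 2 and 2.5 Mb and 32 each in the first bin, from 0 to 0.5 Mb, and the last, from 4 to 4.5 Mb. The poorest bins of the centre thus had as many peaks as the richest ones of the left arm, and there was no overlap beyond that tie. In windows of 100 kb the densest of the centre held 15 combined peaks, from 11000001 to 11100000, where replicate 1 had 41 peaks and replicate 2 had 28. The next held 14 each, from 7500001 to 7600000 and from 11800001 to 11900000. On the left arm the densest held 13, from 4000001 to 4100000, with 42 peaks in replicate 1 and 37 in replicate 2. Windows from 1800001 to 1900000 and from 4400001 to 4500000 held 11 each. The right end has room for only 2 full windows, which held 9 and 6. The mean per window was 7.66 in the centre (65 windows) and 5.16 on the left arm (45 windows), and 2 windows in each were empty. The variance of the window counts was 1.49 times their mean in the centre and 2.06 times on the left arm.

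**Figure D3:**
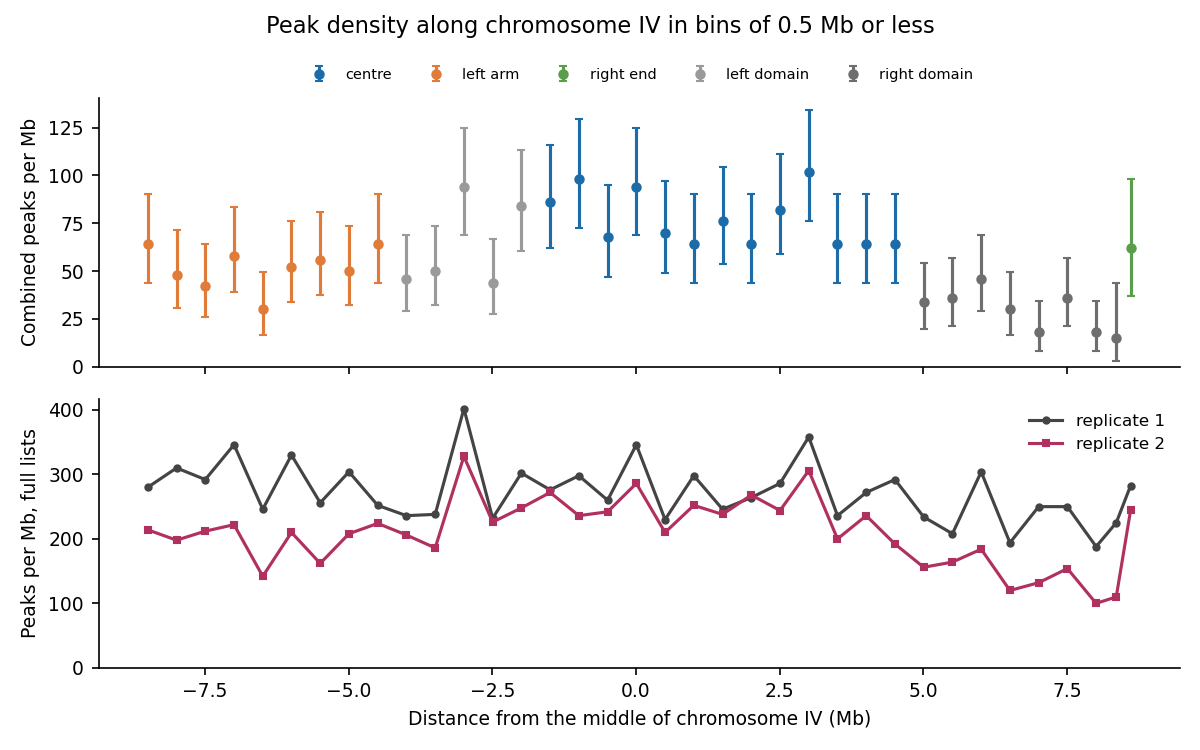
Peaks per Mb in bins of 0.5 Mb (shorter at the end of the second domain and at the right end) against the distance from the middle of chromosome IV in Mb; upper panel, combined list with exact Poisson 95% intervals, coloured by region; lower panel, full lists of both replicates. The 13 bins of the centre (blue) stand at 64 peaks per Mb or more and the 9 bins of the left arm (orange) at 64 or fewer.

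Compared with the piRNA domains, which held the other 271 combined peaks of chromosome IV, the sites outside were the denser. There were 66.3 peaks per Mb outside (61.6 to 71.2) and 43.7 inside (38.7 to 49.2), a ratio of 1.52 (1.32 to 1.75), with p = 1.9e-09 in the two-sided exact binomial test and 1.5e-08 after adjustment over 8 tests. This rested on the second domain. The first or left domain had 63.6 peaks per Mb (54.1 to 74.3), and set against it alone the ratio was 1.04 (0.88 to 1.24, exact binomial p = 0.67). The second or right domain had 30.3 (24.9 to 36.4), which gave a ratio of 2.19 (1.79 to 2.69, exact binomial p = 2.8e-17, adjusted p = 1.4e-16 over 5 comparisons chosen after the counts had been seen). Among those 5, the right end was denser than the second domain that it adjoins (62.02 and 30.3 peaks per Mb, ratio 2.05, 1.17 to 3.39, exact binomial p = 0.0098, adjusted p = 0.024). The right end held only 18 peaks, 5 of them in 1 cluster, while the test takes peaks as independent. The centre (76.6) and the left arm (51.6) stood above and below the first domain (63.6), and neither difference passed after adjustment (adjusted p = 0.056 for each, exact binomial tests). By slices of rank, the ratio of outside to inside was 1.48, 1.25, 1.002, 0.96 and 1.07 in replicate 1 and 1.58, 1.28, 1.03 and 1.19 in replicate 2. The first domain lies between left arm and centre and the second towards the right end, so domain and position along the chromosome cannot be told apart.

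Set against the other 5 nuclear chromosomes together, the sites had the same density to within counting error. The values were 66.3 peaks per Mb for chromosome IV outside the domains and 66.2 for the other chromosomes, a ratio of 1.001 (0.93 to 1.08), with p = 0.97 before and after adjustment in the exact binomial test. In the full replicate lists the sites were slightly sparser, with 285 peaks per Mb against 301 in replicate 1 (ratio 0.95, exact binomial p = 0.0039, adjusted p = 0.01) and 227 against 238 in replicate 2 (ratio 0.95, exact binomial p = 0.021, adjusted p = 0.057). That setting was added after the lists had been seen. The other chromosomes were counted over their whole length, whereas chromosome IV was taken without its domains. The second of these domains had 30.3 peaks per Mb, so the ratios hold for this division only.

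Of the 20 highest-ranked sites, 11 lay in the centre, 7 on the left arm and 2 on the right end. The first of them was on the right end, at 17249693 to 17250051, and was number 21 in the combined list, 37 in replicate 1 and 12 in replicate 2. The next 4 all lay on the left arm. Number 22, at 654714 to 655097, was number 39 in replicate 1 and 13 in replicate 2. Number 32, at 1659012 to 1659447, was number 61 in replicate 1 and 16 in replicate 2. In these 3 sites the peak stood higher in the list of replicate 2.

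Number 44, at 2601893 to 2602367, was number 33 in replicate 1 and 64 in replicate 2, and so ranked higher in replicate 1. Number 49, at 3294587 to 3294918, was number 54 in replicate 1 and 53 in replicate 2. The highest-ranked sites of the centre came next. Number 54, at 11082670 to 11083379, was number 53 in replicate 1 and 63 in replicate 2, and with 710 bp it was as wide as any member. Number 57, at 13240475 to 13240841, was number 73 in replicate 1 and 58 in replicate 2. Number 71, at 10935950 to 10936358, was number 94 in replicate 1 and 69 in replicate 2. These 8 sites were the members among the first 100 combined peaks, and the piRNA domains held 4 of those first 100. The other chromosomes held 88. Of the whole list, 11.5% were members, 4.17% lay in the domains and 84.3% on the other chromosomes.

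The other 12 of the 20 carried numbers 104 to 274. In the centre these were number 104 at 10252289 to 10252749, number 125 at 12032484 to 12032844, number 164 at 8432756 to 8433104, number 169 at 8687809 to 8688103 and number 230 at 12391152 to 12391468. Number 238 at 10933108 to 10933415, number 268 at 7044756 to 7045045 and number 274 at 10919194 to 10919526 followed in the same region. On the left arm they were number 137 at 4445717 to 4446049, number 141 at 4049555 to 4049910 and number 212 at 2599661 to 2599993. The other site on the right end was number 173, at 17278266 to 17278755. All 20 were found in both replicates, none lower than number 475 in replicate 1 or 384 in replicate 2. Number 274, for example, was 475 in replicate 1 and 170 in replicate 2, and number 141 was 79 in replicate 1 and 253 in replicate 2. Every one of the 20 had its list's highest score in each list, 3.50 in the combined list, 3.805 in replicate 1 and 3.075 in replicate 2, so the score does not separate them.

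No difference in rank was detectable between the regions. Of the combined peaks in the whole list, 15.4% by definition carry numbers 1 to 1000. In the centre 75 of 498 sites did (15.1%, exact 95% interval 12.03 to 18.5%), and on the left arm 42 of 232 (18.1%, 13.4 to 23.7%), a difference that was not significant (Fisher's exact test, two-sided, p = 0.33, adjusted p = 0.80). Over all members the share was 15.9% (13.4 to 18.7%), against 16.97% inside the domains (Fisher's exact p = 0.70, adjusted p = 0.80) and 15.3% on the other nuclear chromosomes (Fisher's exact p = 0.63, adjusted p = 0.80). The median peak number was 3414.5 in the centre, 3382.5 on the left arm and 3125 on the right end, and 3247.5 in the whole list. In the upper 50% of the combined list there were 36.5 peaks per Mb in the centre and 24.2 on the left arm, and in the lower 50% there were 40.2 in the centre and 27.3 on the left arm. Among the peaks numbered 1 to 1000 alone the centre had 11.5 per Mb (9.08 to 14.5) and the left arm 9.33 (6.73 to 12.6), and these intervals overlap. For numbers 1 to 500 the values were closer, 4.615 (3.114 to 6.589) in the centre and 4.444 (2.715 to 6.864) on the left arm.

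Width followed rank. The 52 members numbered 1 to 500 had a median width of 333 bp and the 67 numbered 501 to 1000 a median of 251 bp, and none of these 119 had the list's most frequent width, 456 bp. From number 1001 to 2000 the median was 224 bp, and 20 of 101 members had the frequent width. In every later group the median was 456 bp. The frequent width was that of 125 of 129 members from 4001 to 5000 and of 175 of 180 from 5001 on. In all, 499 members (66.7%) were 456 bp wide, against 67.3% of the whole list, while 237 were narrower, down to 114 bp, and 12 were wider. The members covered 290 kb, which is 2.57% of the length outside the domains. That share was 2.97% in the centre and 1.99% on the left arm.

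Nearly all sites were present in both replicates. Of the 748 members, 743 shared at least 1 bp with a peak of each replicate (99.3%, exact 95% interval 98.5 to 99.8%), against 99.4% of the whole combined list. The share was 99.6% in the centre (496 of 498), 98.7% on the left arm (229 of 232) and 18 of 18 on the right end. The authors made the combined list out of these replicates, so the share says how that list was built as much as how the replicates compare. A stricter view asks whether a site had a partner among the upper peaks of each replicate. Of the members 588 did in both (78.6%), against 79.2% of the whole list, 681 did in replicate 1, 649 did in replicate 2 and 6 did in neither.

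Of the members 5 lacked a replicate, and all had a number of 2803 or higher, so each of the 308 members before them was found in both. Number 2803, at 7926383 to 7926838 in the centre, had no peak in replicate 2 and was number 3596 in replicate 1. The nearest peak of replicate 2 lay 1872 bp away. Number 4520, at 3350102 to 3350557 on the left arm, was number 3160 in replicate 1 and missed the nearest peak of replicate 2, its number 8984, by 8 bp. Number 5233, at 12093751 to 12094206, was number 7004 in replicate 1, and number 5537, at 1177680 to 1178135, was number 3512. Neither had a peak in replicate 2. Only number 4833, at 274187 to 274642 on the left arm, lacked replicate 1, and it was number 3397 in replicate 2. As depth is unknown, an absent peak is not a sign of absent binding.

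For the 743 sites in both lists, the order of the numbers was broadly alike. The Spearman correlation of the 2 peak numbers was 0.79 over these sites, a description only, since the sites share 2 libraries and were selected for being reproducible. It was 0.80 in the centre, 0.78 on the left arm and 0.80 over the whole combined list. The 2 numbers of a site differed by a median of 1.40 times, and for 133 sites (17.9%) by more than 2 times. The replicate 1 number was the lower in 397 sites and the replicate 2 number in 346. Among these sites 62 shared both partners with another site, which left 712 distinct pairs of partners. The shared numbers therefore count more than once in the values above. The site least alike was combined number 5366, at 3636432 to 3636887 on the left arm, which was number 27493 in replicate 1 and 2301 in replicate 2. Number 5982, at 13353340 to 13353795 in the centre, was number 22859 in replicate 1 and 3586 in replicate 2. In the opposite direction, number 5084, at 3351343 to 3351798 on the left arm, was number 3104 in replicate 1 and 19131 in replicate 2. It lies close to number 4520, which overlapped no peak of replicate 2. These sites were picked out after their values had been seen.

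**Figure D4:**
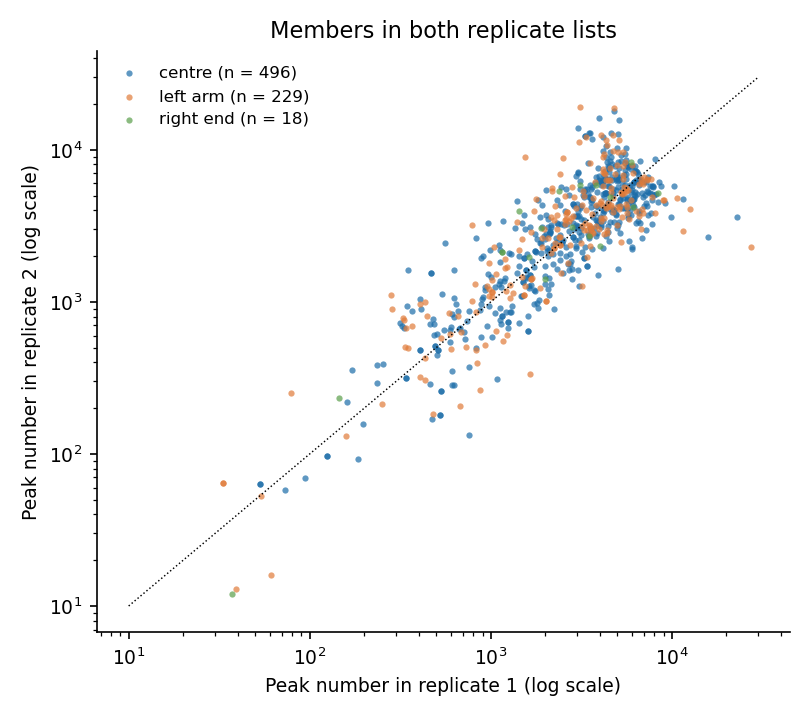
Peak number in replicate 2 against peak number in replicate 1 (both on log axes, a low number is a high rank) for the 743 sites found in both, with 496 in the centre (blue), 229 on the left arm (orange) and 18 on the right end (green); the dotted line marks equal numbers. The sites of all 3 regions lie along the line, with a few far from it, such as the one at 27493 in replicate 1 and 2301 in replicate 2.

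Sites and their partners had close midpoints, and how their widths compared changed with rank. Members numbered 1 to 500 had a median width of 333 bp. Their partners had medians of 262.5 bp in replicate 1 and 274.5 bp in replicate 2. Those numbered 501 to 1000 had a median of 251 bp, and their partners 205 and 221 bp. For members numbered 1001 to 2000 the median was 224 bp, and their partners had medians of 450 and 460 bp. From number 2001 on, group medians were 456 bp for members and 450 and 460 bp for partners. The midpoint of a member was a median of 11 bp from the midpoint of its best-ranked partner in replicate 1 and 14 bp from that in replicate 2. It lay within 50 bp in 84.2% and 82.1% of the members, close to the 84.4% and 81.1% of the whole list.

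Among the upper peaks, no difference in the agreement between replicates was detectable for these regions. At equal list length, 599 of 740 upper peaks of replicate 1 outside the domains overlapped an upper peak of replicate 2 (80.95%), against 80.1% in the rest of the nuclear genome (Fisher's exact test, two-sided, p = 0.62, adjusted p = 0.80). In the other direction 606 of 739 did (82%), against 80.9% (Fisher's exact p = 0.52, adjusted p = 0.80). A combined peak was overlapped by 687 of these 740 (92.84%) and by 664 of these 739 (89.85%). On the other nuclear chromosomes the shares were 90.51% and 88.98%. The full replicate lists held far more peaks here: 3221 in replicate 1, of which 931 (28.9%) overlapped a combined peak, and 2558 in replicate 2, of which 878 (34.3%) did. These shares were 26.82% and 33.66% on the other nuclear chromosomes. A further 938 peaks in replicate 1 and 896 in replicate 2 matched the other replicate but no combined peak. On the other nuclear chromosomes 8098 of 24916 and 7646 of 19674 did so. In the centre 63.6% of the peaks of replicate 1 overlapped one of replicate 2, and on the left arm 50%. For the peaks of replicate 2 the share was 69.8% in the centre and 68.9% on the left arm. Over all regions outside the domains it was 57.9% for replicate 1 and 69.23% for replicate 2. On the other nuclear chromosomes it was 59.27% and 72.38%, and these full-list differences were not tested.

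Part of the sites stood in clusters. Neighbouring members were separated by a median of 5396 bp in the centre, 8717 bp on the left arm and 6058 bp on the right end. When gaps of up to 2000 bp were bridged, the 748 members formed 539 groups: 397 single peaks, 97 pairs and 45 clusters of 3 or more. The clusters held 157 members (20.99%), with 32 clusters in the centre, 12 on the left arm and 1 on the right end. Their share of the sites was 22.3% in the centre and 17.7% on the left arm, set beside 22.01% in the first piRNA domain and 8.04% in the second. A fixed gap bridges more neighbours where peaks are denser, so these shares do not separate clustering from density. Even spacing would give each site 13052 bp in the centre, 19397 bp on the left arm, and 15723 and 33036 bp in the domains. The share over the whole list was not counted. Among all members the share in clusters depends on the gap allowed, and was 8.69% with 1000 bp and 47.6% with 5000 bp. With overlapping members counted once, 39 of the 45 clusters still held 3 places or more, and these clusters held 129 of 715 places (18.04%).

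**Figure D5:**
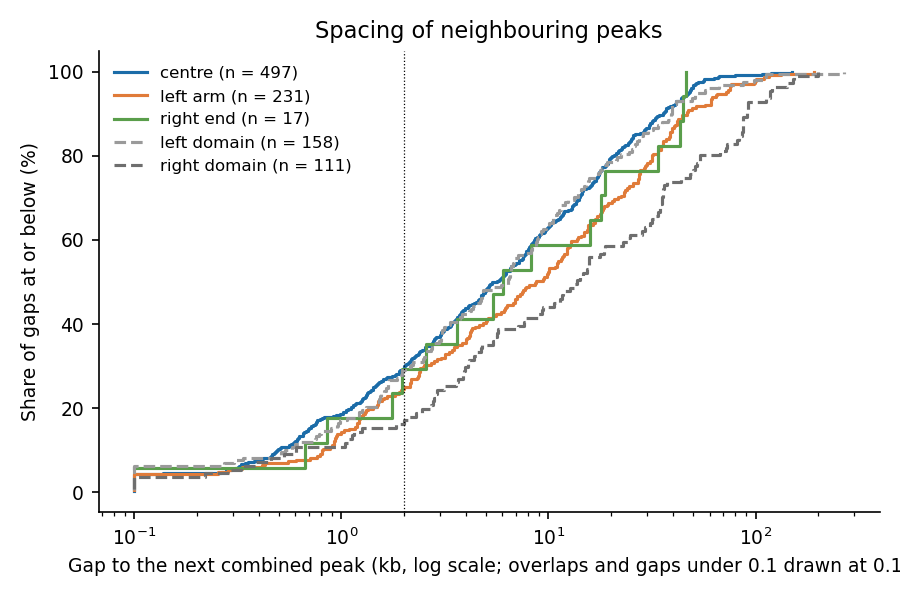
Cumulative share of gaps between neighbouring combined peaks, in percent, against gap length in kb on a log axis, for the centre, left arm and right end (solid) and both piRNA domains (dashed); overlapping neighbours and gaps under 0.1 kb are drawn at 0.1 kb and the dotted line marks the 2 kb used for clusters. Gaps of 2 kb or less make up 29.6% in the centre, 24.7% on the left arm and 16.2% in the second domain.

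The largest clusters held 6 listed sites. One in the centre ran from 10817119 to 10822158, a span of 5.04 kb, and held number 314 as well as number 6113. Another in the centre ran from 11347202 to 11354308, over 7.11 kb, with numbers from 2031 to 5298. The third, on the left arm, ran from 4398495 to 4406232, over 7.74 kb, with numbers from 2350 to 5942. Clusters of 5 lay at 8525963 to 8531096 in the centre, with number 884 as its highest-ranked peak, and at 17328832 to 17335437 on the right end, with number 1472. In each of these 5 clusters all peaks were found in both replicates. Overlapping peaks, which are treated in the last paragraph, are counted separately here. Counted once, they leave 4 places in the first of these clusters and in each cluster of 5, and 6 in the other 2. In the clusters of 5 the lowest and the highest number belonged to such overlapping peaks, 884 and 5799 in the centre and 1472 and 5924 on the right end.

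A cluster of 4 was singled out after its values had been seen. It ran from 10933108 to 10937206 in the centre, contained the sites numbered 71 and 238 described above, and its 4 numbers had a median of 348 and a maximum of 777. Another cluster of 4 on the left arm, from 2599661 to 2604123, held numbers 44 and 212, and its other numbers were 3548 and 5610. Number 5610 has the same start and end as number 44, so the cluster holds 3 places. That cluster began where the longest empty stretch ended.

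This longest stretch without a combined peak ran from 2408785 to 2599660 on the left arm, over 191 kb, where even spacing within the arm would give 9.84 peaks. Replicate 1 had 28 peaks in it and replicate 2 had 10, where their mean densities on the arm would give 55.5 and 38.01. The next, in the centre, ran from 12855101 to 13004849, over 150 kb, with 8 and 10 replicate peaks in place of 42.2 and 36.7. On the left arm a stretch of 132 kb from 3875638 to 4007645 held 5 peaks of replicate 1 and 0 of replicate 2, in place of 38.4 and 26.3. In none of these 3 did a peak of either replicate belong to its upper peaks. Stretches of 121 kb, from 10524860 to 10645656, and of 119 kb, from 11179496 to 11298541, followed in the centre. The first of them held 15 and 21 replicate peaks, and the second 8 and 10, of which 2 of replicate 1 were upper peaks. Stretches of 100 kb or more numbered 4 in the centre, 5 on the left arm and 0 on the right end.

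Some members overlapped each other, and a few were listed with identical start and end. Among the members 66 overlapped another member, and merging them left 715 separate places, of which 476 were in the centre, 222 on the left arm and 17 on the right end. In 31 cases a pair of members had the same best-ranked partner in replicate 1 and also the same one in replicate 2, and in 4 places the 2 members had identical start and end. The highest-ranked of these were numbers 44 and 5610, both at 2601893 to 2602367, and numbers 54 and 3333, both at 11082670 to 11083379. In all 31 pairs the second member had a number above 1000, and in 12 the first was numbered 1000 or lower. In 28 pairs the second member overlapped more than 1 peak in each replicate. The partner taken was the overlapping peak with the lowest number, so a shared partner does not show that a pair is a single site. The whole combined list held 92 peaks that shared start and end with another. Counted after merging, the centre had 73.2 places per Mb and the left arm 49.3, a ratio of 1.48 (exact binomial test, p = 7.8e-07, adjusted p = 3.1e-06).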

How the data were processed

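Peak lists of both ChIP samples and the combined list were analysed, and the 2 input samples were not. Positions are, per the file headers, in WormBase build WS220, and the source column of the deposited lists names SPP and IDR, which call peaks and rank them by reproducibility. Aligner, versions, thresholds and the rule for combining replicates are not stated in the labels or files used here. The score deposited by the authors has an unstated scale and served only to rank peaks within a list. Start and end were used as deposited.

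Sites were chosen by midpoint on chromosome IV. The chromosome length was the largest peak end over the lists, 17490245 bp. Densities were compared with exact binomial tests and shares with Fisher's exact tests, adjusted together over 8 tests (Benjamini-Hochberg, threshold 0.05). Intervals are exact 95% Poisson, binomial or Clopper-Pearson intervals. Peaks overlapped when they shared at least 1 bp, and the partner of a site was its overlapping peak with the lowest number. Upper peaks of a replicate are its highest-scoring nuclear peaks, as many as the combined list holds, ties by peak number. Sites named were the 20 with the lowest numbers, the 5 largest clusters, the 5 longest empty stretches, the densest windows, the sites beside each border and those lacking a replicate. Others are marked as chosen later. Members, regions and rules were chosen with earlier results of these data known. Counting steps were tested on simulated data. Computations ran in Python 3.11.15 with scipy 1.17.1, pandas 2.3.3 and numpy 2.4.6, and plots in matplotlib 3.10.9.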

Additional observations from a re-analysis of the deposited data

How the results depend on the processing

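Alternatives were set beside results 60 times, and in 42 the result did not change in direction or in its side of the threshold (for shares without a test, it stayed within its interval). The ratio of centre to left arm was 1.44 to 1.54 when 1 replicate replaced the combined list, and 0.97 in the full list of replicate 1. The ratio of outside to inside the domains was 1.48 to 1.58 with either replicate, and 1.04 against the first domain alone. The ratio to the other chromosomes, 1.001, fell below 1 with the upper 50% of the list (0.95), the highest score only (0.98), peaks within 2000 bp counted once (0.9985), either replicate (0.985 to 0.99) and the full lists of replicate 1 (0.9474) and replicate 2 (0.9529). Only the full list of replicate 1 passed the threshold there. The share of low numbers in the centre minus that on the left arm was -3.04 percentage points. It was -2.60 with the first 500 numbers, 0.21 with the first 2000 and -3.21 to -1.70 with either replicate. Against the domains, -1.07 points became -5.28 with the first 2000 numbers, -1.17 with the first 500 and -1.81 to -1.74 with either replicate. Against the other chromosomes, 0.66 points became -0.83 with the first 500 and -1.38 with the first 2000 numbers, and was 0.44 to 0.90 with either replicate. The agreement of replicate 1 peaks, 0.85 points above the rest, was -0.44 with a 50% reciprocal overlap. None of these share differences passed the test. With a 50% reciprocal overlap 84.1% of sites were found in both replicates, clusters held 8.69% or 47.6% of sites with 1000 or 5000 bp and 18.04% of places with overlapping members counted once (added after seeing the data), and 34.6% of sites in the upper 50% had the frequent width. The cause of these shifts was not tested. No paired analysis was possible because only the ChIP samples came with lists, so the input samples of the same number could not be set beside them. Read depth is unknown, so low-ranked and absent peaks cannot be read as weaker or absent binding.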
